A study of Equus caballus with 6 samples.

Results

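EIF4EBP1 and the genes of cap-binding translation control were read in the testes of 6 adult stallions. The 10 genes were chosen by symbol around EIF4EBP1, and EIF4EBP1 itself was chosen by its values on these arrays, so its level and its difference between groups are given as a description with no test. A probe belonged to the set if its annotation gave exactly 1 of the 10 symbols. This held for 15 of 23472 probes with a single symbol, and they covered 9 of the 10 genes. EIF4G3 had no such probe and was not analysed here. One further probe was annotated to EIF4A1 together with 3 other genes and was left out. All 10 symbols are present in the horse gene table used here.

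Translation of most messenger RNAs starts at the cap on their 5′ end. EIF4E binds the cap, EIF4G is a scaffold that joins EIF4E to the RNA helicase EIF4A, and together they form the complex that loads the small ribosomal subunit. The EIF4E-binding proteins, encoded by the EIF4EBP genes, compete with EIF4G for EIF4E, and the kinase complex mTORC1 releases this block by phosphorylating them. In the testis many messages of meiotic and post-meiotic germ cells are stored and translated later, so initiation factors are studied there as a layer of control.

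The treated group was 3 stallions given dexamethasone, a synthetic glucocorticoid, intravenously at 0.1 mg/kg, and the control group was 3 stallions given the same volume of saline. All 6 had been acclimated for 10 days on hay and horse feed, and their testes were collected 12 h after the injection. Total RNA of minced parenchyma from each stallion was read on 1 human CodeLink array, so horse transcripts were measured by probes designed for human ones. The match between the human probes and the horse transcripts was not examined, and a dim probe does not show a low transcript level. Levels below are log2 intensities after background correction and normalization between arrays, and differences are dexamethasone minus control. Levels of different probes are not compared with each other.

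Of 53423 gene probes per array, 42.5% to 47.8% were above background, and 24590 were tested because they were above background on at least 3 arrays. The arrays correlated with each other at a median of 0.983 to 0.987 per array, across probes, and control replicate 3 was at 0.987. Markers of the labelled tissue were present. All 6 Leydig cell genes listed and 6 of 7 Sertoli cell genes had a tested probe. Of 10 germ cell genes, 8 had a probe with a single symbol and 5 had a tested one. SOX9, DDX4, TNP1 and PRM2 were above background on 0 arrays. The number of arrays limits the precision, and a two-sided exact permutation test between groups of 3 stallions has a smallest possible p of 0.1.

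EIF4EBP1, the best studied of the EIF4E-binding proteins, was bright in 5 stallions and far dimmer in the sixth, a control animal. Its probe 141104 had background-subtracted intensities of 8164, 6082 and 6647 in dexamethasone replicates 1 to 3, of 5301 and 6562 in control replicates 1 and 2, and of 412 in control replicate 3. Its probe 273005 had 6952, 6078 and 6699 in the dexamethasone stallions, 5256 and 6479 in control replicates 1 and 2, and 302 in control replicate 3. Both probes put the same animal apart from the rest. The median of the other 5 stallions was 15.9 times the intensity of control replicate 3 on probe 141104 and 21.4 times on probe 273005. On the authors' scaled intensities these ratios were 15.1 and 20.0. Even the lowest of the other 5 was 10.4 and 14.0 times as high on that scale. Less EIF4EBP1 transcript in that animal and a poorer match of its transcript to the human probes cannot be told apart here. In whole tissue, fewer cells that express a gene and less RNA per cell cannot be told apart either.

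**Figure D1:**
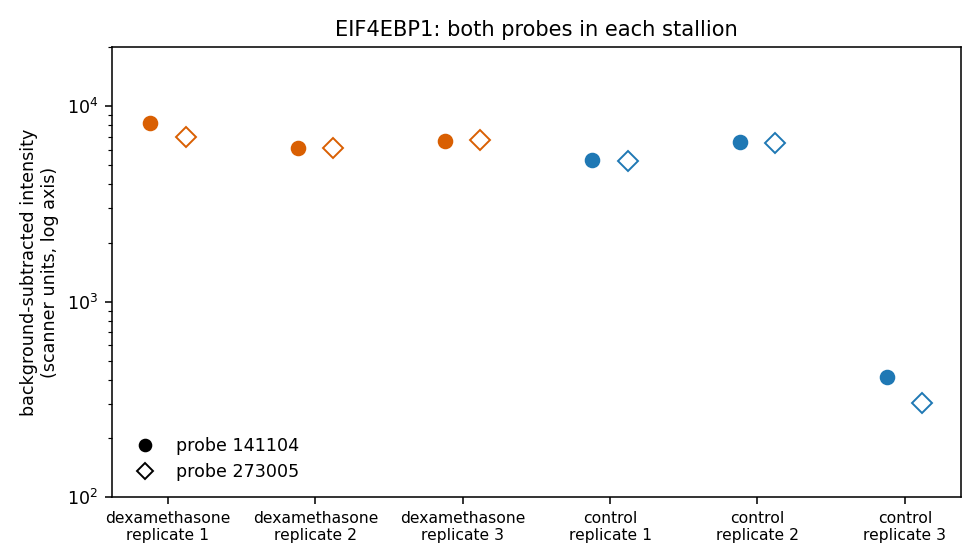
Background-subtracted intensity of EIF4EBP1 in each stallion (log axis, scanner units). Filled circles are probe 141104 and open diamonds are probe 273005, with dexamethasone stallions in orange and controls in blue. Control replicate 3 lies at 412 and 302, and the other 5 stallions lie between 5256 and 8164.

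After normalization, EIF4EBP1 on probe 141104 stood at 13.08, 12.57 and 12.80 in dexamethasone replicates 1 to 3 and at 12.14, 12.63 and 8.89 in control replicates 1 to 3. On probe 273005 it stood at 12.87, 12.56 and 12.82 in the dexamethasone stallions and at 12.12, 12.62 and 8.51 in the controls. The deviation of control replicate 3 from the mean of the other 5 was -3.75 and -4.09 on the log2 scale, where the SD among those 5 was 0.35 and 0.30. The order of the animals was the same at its ends on both probes, with dexamethasone replicate 1 highest, control replicate 1 second lowest and control replicate 3 lowest. Dexamethasone replicate 2 and control replicate 2 differed by less than the SD among the 5 on each probe. The 2 probes are annotated to the same human transcript, and whether they share sequence was not examined, so they are 2 readings of 1 gene and not independent replicates.

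The low EIF4EBP1 signal in control replicate 3 was still above background. The ratio of spot mean to noise was 4.94 on probe 141104 and 4.39 on probe 273005, against 60.5 to 94.6 for both probes in the other 5 stallions. Both spots carried the scanner's flag G on all 6 arrays. The local background of the 2 spots in control replicate 3 was 51 and 48, within the 45 to 60 of the other animals, and their areas were 85 and 82 pixels against 106 to 159. The 12 other spots numbered within 3 places of the EIF4EBP1 spots differed in control replicate 3 from the mean of the other 5 by -0.24 to 0.19 on the log2 scale. Some of these spots were above background on 0 arrays and could not have shown a fall. The brightest of them, with means of 9.29 to 10.59 in the other 5 stallions, differed by -0.24 to 0.04. Neither the local background nor these bright spots were low on that array. The part of the smaller spot area in the result was not tested.

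Over all probes, a separation of this size was rare. A stallion was counted as standing apart where its level lay at least 1 log2 unit from the nearest of the other 5. This held for 2 of the 12 tested probes of the gene set, both of EIF4EBP1, and for 0.246% of the 22332 tested probes with values on all 6 arrays. The gap was 3.61 for probe 273005 and 3.24 for probe 141104, which ranked 2 and 3 among the 22332. The single larger gap, of 7.41, belonged to a probe without a single gene name and to dexamethasone replicate 2. Among named genes the next largest gap was 2.12, for TSPAN3 in dexamethasone replicate 1. Of the 1128 genes with 2 or more such probes, EIF4EBP1 was the only one with 2 probes that put the same animal apart in the same direction. These ranks and counts describe the values for which EIF4EBP1 was chosen.

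**Figure D2:**
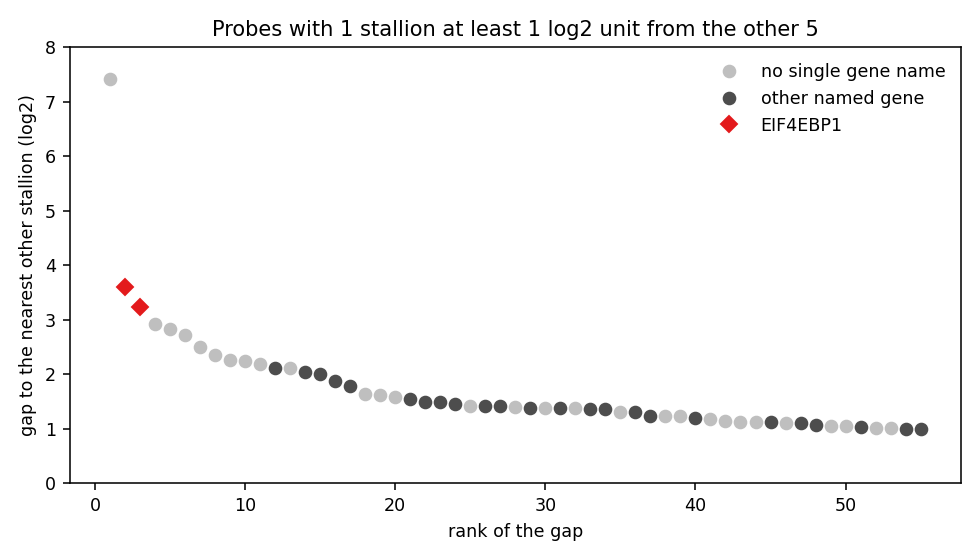
Size of the gap between 1 stallion and the nearest of the other 5 (log2), for the 55 tested probes where it reached 1, in order of rank. Red diamonds are the 2 EIF4EBP1 probes at 3.61 and 3.24, dark points are other named genes and pale points are probes without a single gene name.

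The array of control replicate 3 did not stand apart in general. It held 7 of the 55 such probes, 4 as the lowest animal and 3 as the highest, against 4 to 13 on the other arrays. From the 5th to the 95th percentile of tested probes, its level deviated from the mean of the other 5 by -0.23 to 0.23. The other named probes with control replicate 3 apart were KDM4A, where it was the highest animal, and EGFLAM-AS2, where it was the lowest with a gap of -1.39. Marker genes did not put it apart either: of 30 tested probes of the Leydig, Sertoli, germ, endothelial, macrophage, smooth muscle and erythrocyte lists, 24 had values on all 6 arrays, and 0 of these met the same criterion. Of the Leydig markers, 6 probes had values on all 6 arrays, and these belonged to INSL3, STAR and LHCGR. Their summed level was 13.00 in control replicate 3, 12.98 and 12.77 in the other controls and 12.54 to 12.72 in the dexamethasone stallions. On this sum of intensities, which leaves out CYP11A1, CYP17A1 and HSD3B2, the groups did not overlap. Singly, this held for 1 INSL3 probe and not for LHCGR, the brightest. The summed germ cell level was 11.52, within the 11.34 to 11.63 of the other 5 animals.

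The genes that neighbour EIF4EBP1 in the horse gene table were near their usual level in the same animal. These genes were looked up after the EIF4EBP1 values had been seen. Of the 10 protein-coding genes on each side, 11 genes had a tested probe, 14 probes in all. Their levels in control replicate 3 differed from the mean of the other 5 by -0.25 for FGFR1, a growth factor receptor, to 0.30 for LSM1, a factor of messenger RNA decay. ASH2L, a subunit of histone methyltransferase complexes and the next gene on one side, differed by 0.00, and ADRB3, a beta-adrenergic receptor and the next gene on the other side, by -0.02. STAR, the mitochondrial cholesterol carrier of Leydig cells, lies beyond ASH2L and differed by -0.03, 0.09 and 0.04 on its 3 probes. Some of the 14 probes were dim, such as that of PLPBP at 6.34 to 6.48, and could not have shown a fall like that of EIF4EBP1. The brighter probes of FGFR1, LSM1 and ERLIN2 differed by -0.25, 0.30 and -0.06. For ASH2L, PLPBP and a ZNF703 probe the mean leaves out an animal without a value. The low signal in control replicate 3 was seen for EIF4EBP1 and not for the brighter measured neighbours.

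The 5 named probes whose pattern over the 6 arrays was most like EIF4EBP1 on probe 141104 were those of TRABD2B (Pearson r = 0.99), AGAP3 (0.98), ESRRA (0.97), FBN2 (0.97) and ELL (0.97), out of 11009 named probes compared. Because EIF4EBP1 splits the animals into 1 and 5, the likeness describes little more than a lower value in control replicate 3. Its distance below the mean of the other 5 was far smaller in these genes, at -0.38 for TRABD2B, -0.17 for AGAP3, -0.22 for ESRRA, -0.35 for FBN2 and -0.29 for ELL on the log2 scale.

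EIF4EBP2 did not share the pattern, and for EIF4EBP3 the probe was too dim to show it. EIF4EBP2, the paralog known for its role in the nervous system, was at 8.15, 8.19 and 8.01 in the dexamethasone stallions and at 8.10, 8.07 and 8.17 in the controls on probe 76104. Its range of 0.18 was the narrowest of any tested probe in the set, and control replicate 3 lay 0.06 above the mean of the other 5. A second EIF4EBP2 probe was above background on 0 arrays. EIF4EBP3, a further paralog, was above background on 2 of 6 arrays, dexamethasone replicate 1 at 6.46 and control replicate 3 at 6.67, and was not tested. On the other 4 arrays EIF4EBP3 was not well above background, with values of 6.26 to 6.46.

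**Figure D3:**
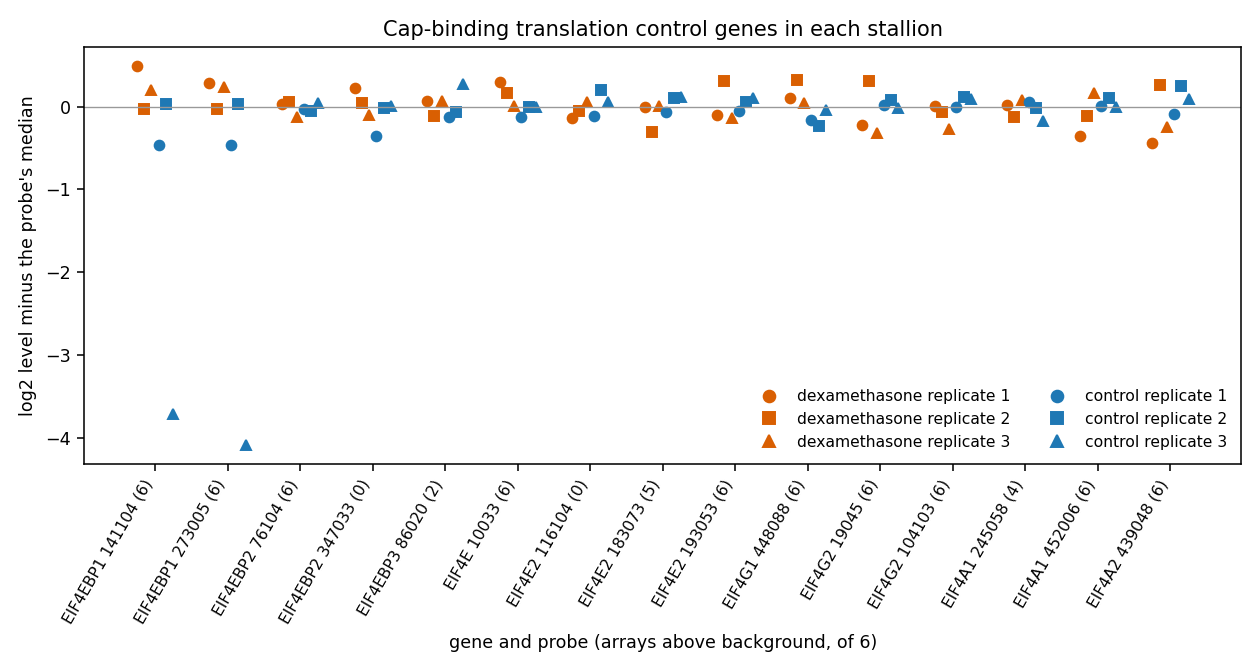
Log2 level of each probe in each stallion, minus that probe's median over the 6 stallions. Orange marks dexamethasone and blue marks control stallions, with a marker shape for each replicate, and the number of arrays above background stands in brackets. Control replicate 3 falls to about 4 below the median on both EIF4EBP1 probes, and all other points lie within 0.5 of their median.

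Among the cap-binding proteins, EIF4E was at 12.67, 12.53 and 12.37 in the dexamethasone stallions and at 12.24, 12.35 and 12.36 in the controls. The lowest dexamethasone value lay just above the highest control value, so the groups did not overlap but nearly touched. EIF4E2, a homolog that binds the cap without joining EIF4G and is known from translational repression, was at 10.27, 10.68 and 10.23 in the dexamethasone stallions and at 10.31, 10.43 and 10.47 in the controls on probe 193053. There dexamethasone replicate 2 was the highest animal and dexamethasone replicates 1 and 3 were the lowest. On the dimmer EIF4E2 probe 183073, dexamethasone replicate 2 was not well above background, and the other 5 stallions lay between 6.44 and 6.62. Another EIF4E2 probe was above background on 0 arrays.

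Among the scaffolds, EIF4G1 was at 9.56, 9.77 and 9.49 in the dexamethasone stallions and at 9.29, 9.21 and 9.41 in the controls. All 3 dexamethasone values lay above all 3 control values. EIF4G2, a homolog that lacks the EIF4E-binding site and serves cap-independent initiation, was at 9.86, 10.40 and 9.76 in the dexamethasone stallions and at 10.10, 10.16 and 10.07 in the controls on probe 19045. Its probe 104103 was at 7.96, 7.89 and 7.69 in the dexamethasone stallions and at 7.96, 8.08 and 8.05 in the controls. On probe 19045 the 3 controls lay between the dexamethasone animals, and on probe 104103 dexamethasone replicate 3 was the lowest animal, as it was on probe 19045.

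Among the helicases, EIF4A1 was at 7.98, 8.23 and 8.49 in the dexamethasone stallions and at 8.34, 8.43 and 8.33 in the controls on probe 452006. On EIF4A1 probe 245058, above background on 4 arrays, all 6 animals lay between 6.31 and 6.57. EIF4A2, its close paralog, was at 10.68, 11.39 and 10.88 in the dexamethasone stallions and at 11.03, 11.37 and 11.22 in the controls. EIF4A2 had the widest range after EIF4EBP1, 0.71, and the dexamethasone animals were again both its highest and its lowest. The SD was larger over the dexamethasone than over the control stallions on 9 of the 10 tested probes other than EIF4EBP1, a count made after the values were seen, against 55.8% of all tested probes with 6 values. Dexamethasone replicate 2, the highest animal on 5 of these 10 probes, was also the array with the fewest probes above background (42.5%) and the lowest correlation with the rest (0.983). How often that array was the highest over all tested probes was not counted. Its part in the wider spread was not tested.

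Setting the dexamethasone against the saline stallions asks whether messages of the translation machinery differ 12 h after a glucocorticoid. Of the 10 tested probes other than EIF4EBP1, 0 passed limma's adjusted p threshold of 0.05, the lowest adjusted p being 0.999, and 0.00407% of all 24590 probes passed it. At an unadjusted p under 0.05 there was 1 of the 10, against 3.29% of all probes. The differences of these 10 probes ran from -0.22 to 0.30 on the log2 scale, 3 above and 7 below 0. Beside these stand markers of Leydig cells. The summed level of their INSL3, STAR and LHCGR probes did not overlap between the groups. It is a sum of intensities, so the bright LHCGR and INSL3 probes weigh most. LHCGR alone overlapped, at 12.21, 12.18 and 12.22 in the dexamethasone stallions and 12.33, 12.17 and 12.36 in the controls. No share of all probes stands beside this sum. Singly, 4 of the 9 tested Leydig probes were higher and 5 lower. The groups did not overlap on 1 of the 9, against 9.27% of all tested probes. That was 1 of the 2 probes of INSL3, a hormone of Leydig cells. It was at 8.70, 9.62 and 9.70 in the dexamethasone stallions and at 10.64, 10.33 and 10.66 in the controls. That INSL3 difference was -1.21 ± 0.23 (SE, limma adjusted p = 0.999), against -0.52 on the other probe, where the groups overlapped. The part of the Leydig markers in the differences of the translation genes was not tested. The median difference of the 10 probes was -0.06, against -0.01 over all tested probes, of which 47.5% were higher. With median scaling 22.8% of all tested probes were higher, and with the authors' values 33.7%.

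EIF4G1 was the probe with the unadjusted p under 0.05. Its mean was 9.61 ± 0.14 in the dexamethasone and 9.30 ± 0.10 in the control stallions (SD, n = 3 each). The difference was 0.30 ± 0.10 (SE), with a 95% interval of 0.08 to 0.53 and a limma adjusted p of 0.999. EIF4E had means of 12.52 ± 0.15 and 12.32 ± 0.07 (SD, n = 3 each). Its difference was 0.20 ± 0.10 (SE), with an interval of -0.01 to 0.42 and a limma adjusted p of 0.999. These were the probes whose groups did not overlap, 2 of 12 tested, against 9.27% of all tested probes. In both the dexamethasone group was the higher, which held for 4.2% of all tested probes. With median scaling the groups overlapped for both, and the differences were 0.16 for EIF4G1 and 0.11 for EIF4E. With the authors' values the EIF4G1 groups overlapped too. EIF4E differed by 0.13 without dexamethasone replicate 1. The EIF4G2 probe 104103 had groups that did not overlap, with dexamethasone lower, with median scaling, without background correction and with the authors' values. Numbers in the names under which the arrays were deposited form 2 runs of consecutive numbers, taken here as runs of slides. Whether the arrays of a run were handled together is not known here. The first run holds 2 stallions of each group and the second 1 of each. Within the first run the differences were 0.41 for EIF4G1 and 0.30 for EIF4E, and within the second 0.08 and 0.01.

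**Figure D4:**
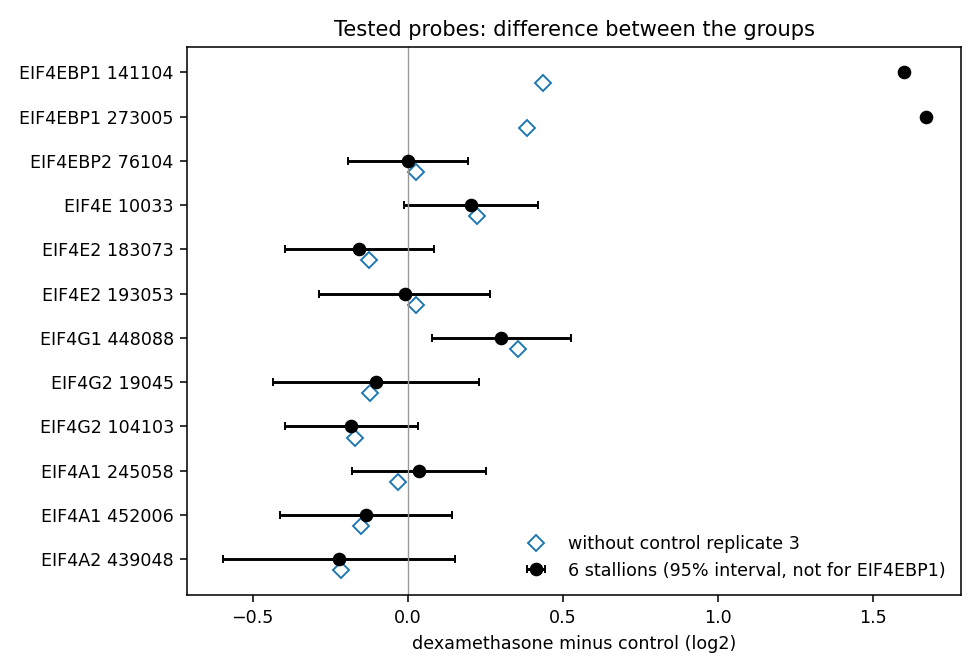
Difference between the dexamethasone and control stallions (log2) for the 12 tested probes. Black points are the differences over 6 stallions, bars are limma's 95% intervals (drawn for all but EIF4EBP1), and open diamonds leave out control replicate 3. The EIF4EBP1 differences of 1.60 and 1.67 move to 0.43 and 0.38 without that animal, and the other 10 probes then lie between -0.22 and 0.36.

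The intervals of the remaining members included 0. EIF4EBP2 differed by 0.00 ± 0.09 (SE), with an interval of -0.19 to 0.19. EIF4E2 differed by -0.01 ± 0.12 on probe 193053, with an interval of -0.28 to 0.27, and by -0.16 ± 0.11 on probe 183073. That second probe is dim, and its difference was -0.05 without dexamethasone replicate 2, the array where it was not above background, -0.42 when the background was subtracted and -0.41 on the authors' scale. The EIF4G2 differences had the same sign, -0.10 ± 0.15 on probe 19045 and -0.18 ± 0.10 on probe 104103 (SE), the latter with an interval of -0.40 to 0.03. Without dexamethasone replicate 3 the first was 0.02 and the second -0.10, and without dexamethasone replicate 2 the first was -0.30. EIF4A1 differed by -0.14 ± 0.12 on probe 452006 and by 0.03 ± 0.10 on probe 245058, and EIF4A2 by -0.22 ± 0.17 (SE), with an interval of -0.60 to 0.15. Without dexamethasone replicate 1 the EIF4A1 difference on probe 452006 was -0.01 and that of EIF4A2 was -0.07, and without dexamethasone replicate 2 that of EIF4A2 was -0.43. Within the second run of slides, EIF4A1 probe 452006 differed by 0.16. The offset of 50 compresses the differences of dim probes, so a transcript may have changed by more than the interval of its probe.

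For EIF4EBP1 the difference between the groups rested on control replicate 3. It was 1.60 on probe 141104 and 1.67 on probe 273005, with means of 12.82 ± 0.26 against 11.22 ± 2.03 and of 12.75 ± 0.17 against 11.08 ± 2.24 (SD, n = 3 each). Without control replicate 3 it was 0.43 and 0.38. Within the first run of slides, which does not hold that animal, it was 0.44 and 0.35, and within the second, where control replicate 3 is the only control, it was 3.91 and 4.31. The groups overlapped on both probes, through dexamethasone replicate 2 and control replicate 2, and did not overlap with cyclic loess or with the authors' values.

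A list of 27 genes of mTORC1 signalling was examined. It holds genes upstream of the EIF4E-binding proteins and others that are not, such as RPS6KB1 and EEF2K. Of the 27 genes, 12 had a tested probe, 14 probes in all. Another 9 genes had probes that were above background on 0 arrays, MTOR itself among them. Of the 14 probes, 0 passed limma's adjusted p in either direction, 6 were higher and 8 lower, and the median difference was -0.02. The largest difference belonged to AKT1, a kinase upstream of mTORC1, at -0.45 ± 0.16 (SE, limma adjusted p = 0.999). AKT1 was at 7.38, 7.44 and 7.24 in the dexamethasone stallions and at 8.12, 7.86 and 7.42 in the controls, with control replicate 3 within the dexamethasone range. Its difference was -0.29 without control replicate 1, -0.64 without control replicate 3 and -0.18 within the second run of slides. RRAGB, a GTPase that brings mTORC1 to lysosomes, differed by -0.18 ± 0.16 (SE, limma adjusted p = 0.999) and by 0.02 without dexamethasone replicate 1, which was its lowest animal at 6.99. DDIT4, an mTORC1 inhibitor known to be induced by glucocorticoids, was at 8.64, 8.74 and 8.72 against 8.70, 8.63 and 8.81, a difference of -0.02 ± 0.09 (SE).

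In a list of 24 other factors at the cap and the poly(A) tail, 15 genes were tested with 19 probes. The number past limma's adjusted p was 0, 12 probes were higher and 7 lower, and the median difference was 0.05. CTIF, a scaffold of the nuclear cap-binding complex, differed by 0.20 ± 0.10 (SE), at 9.26, 9.26 and 9.33 against 9.01, 8.98 and 9.27, and by 0.06 with median scaling. CYFIP1, which binds EIF4E in a repressor complex, differed by -0.19 ± 0.13 (SE), by -0.06 without dexamethasone replicate 2, and by -0.46 both on the authors' scale and with background subtraction. PDCD4, an inhibitor of EIF4A, was above background on 0 arrays with both of its probes.

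In a list of 39 genes of the ternary complex, the scanning ribosome and its stress response, 30 genes were tested with 34 probes. The number past limma's adjusted p was 0, 10 probes were higher and 24 lower, and the median difference was -0.04, where 47.5% of all tested probes were higher. EIF3M, a subunit of the scaffold EIF3, differed by 0.27 ± 0.09 (SE, limma adjusted p = 0.999), at 12.13, 12.06 and 12.26 against 11.84, 11.83 and 11.98. Its groups did not overlap, which held for 3 of the 34 probes of the list and for 9.27% of all tested probes. The EIF3M difference was 0.15 with median scaling. ATF4, a transcription factor of the integrated stress response, differed by -0.21 ± 0.11 (SE), at 8.47, 8.79 and 8.64 against 8.96, 8.83 and 8.75. The ATF4 groups overlapped through dexamethasone replicate 2.

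Of the 67 tested probes of these 3 lists, 64 had values on all 6 arrays, and 0 of these had 1 animal standing apart. Control replicate 3 lay between -0.45 and 0.13 of the mean of the other 5 over the mTORC1 probes, between -0.22 and 0.22 over the other cap and poly(A) factors, and between -0.10 and 0.24 over the ternary complex list. Over the 10 tested probes of EIF4EBP2, EIF4E, EIF4E2, EIF4G1, EIF4G2, EIF4A1 and EIF4A2 it lay between -0.18 and 0.17. Dim probes among all of these could not have shown a fall as large as that of EIF4EBP1.

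**Figure D5:**
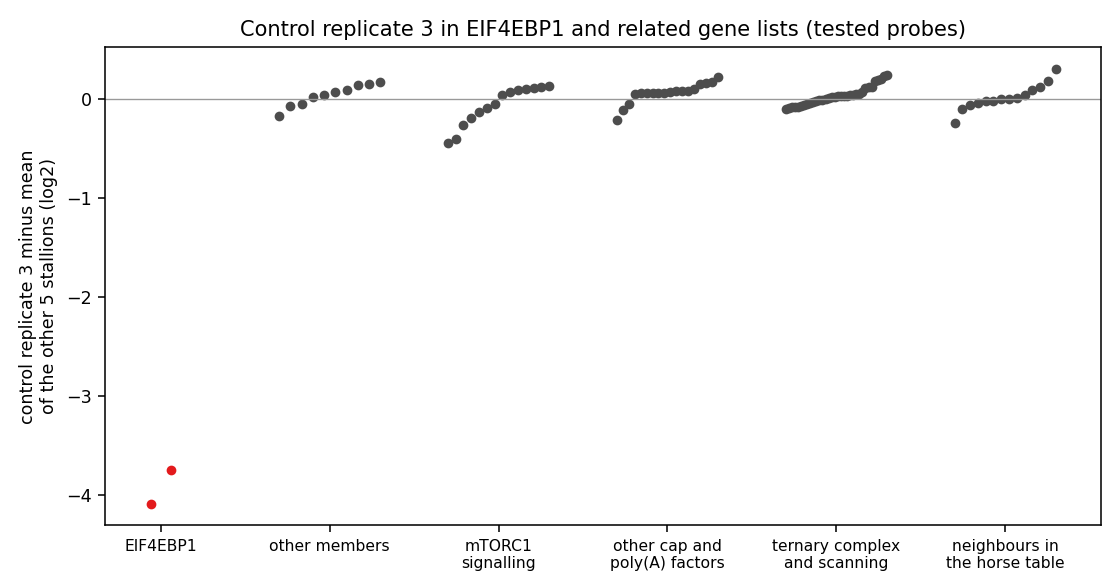
Level in control replicate 3 minus the mean of the other 5 stallions (log2), for each tested probe of EIF4EBP1 (red), of the other genes of the set, of the 3 lists of translation genes and of the neighbours of EIF4EBP1 in the horse gene table. The EIF4EBP1 probes lie at -3.75 and -4.09, and all other probes lie between -0.45 and 0.30.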

How the data were processed

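The authors deposited, for each of 6 one-colour CodeLink human arrays, a spot mean and a local background intensity, their difference, an intensity scaled by 1 constant per array and a signal-to-noise score, per the file headers. The meaning of the quality flags is not given in the sources used here. Spots flagged M had no value, and spots flagged C, I or P were set to missing. Spot mean and background were corrected with normexp (offset 50), converted to log2 and quantile normalized, using R 4.3.3 and its package limma 3.58.1. Figures used matplotlib 3.10.9. A probe was above background where its flag held no L, and was tested if this held on 3 or more arrays with at least 2 values per group.

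Groups came from the labels, and replicate numbers follow sample order and pair no animals. The fit was limma's lmFit and eBayes over all tested probes, two-sided, with Benjamini-Hochberg adjustment, and it was tested on simulated data. Errors of differences are moderated standard errors and intervals are 95%. Gene names came from the platform annotation, and no probe sequences were used. Named were all probes of the set, the 5 most like EIF4EBP1, and the 2 largest differences of each list, with DDIT4, MTOR and PDCD4 added after their values were seen. The members, the lists and the rules were chosen with earlier results of these data known. Alternatives were other background corrections, normalizations, filters, eBayes settings, array weights, the slide run as a block and leaving out each array.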

Additional observations from a re-analysis of the deposited data

How the results depend on the processing

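None of the tested probes of the gene set other than EIF4EBP1 passed limma's adjusted p in any of the alternatives run. Over all probes 1 passed. This count was 0 when the background was subtracted, when all 6 arrays had to be above background and when eBayes used a trend with robust variances. Leaving out single arrays gave 0 to 1, with 0 for control replicates 1 and 3. Probes of the set whose groups did not overlap numbered 2, and 1 with median scaling (EIF4G2 probe 104103, with dexamethasone lower), 4 with cyclic loess, 4 with the authors' scaled intensity, and 2 to 7 without each array in turn, with 7 reached without dexamethasone replicate 2 and 4 without control replicate 1 or 2. The share of all tested probes was counted for the main setting only, so these other counts cannot be set against one. Both EIF4EBP1 probes, chosen by their values, were in the counts with cyclic loess and the authors' scaled intensity. They were also in those without dexamethasone replicate 2 or control replicate 2. Leaving out an array makes it easier for groups not to overlap. Other causes were not tested. The 2 EIF4EBP1 probes kept control replicate 3 apart in every setting of background, normalization, filter and distance that was run, at -3.91 to -3.75 and -4.30 to -4.09 relative to the mean of the other 5. Their difference between groups was 1.48 to 1.65 and 1.55 to 1.74 over the alternatives, and 0.43 to 2.3 and 0.38 to 2.44 without each array in turn. Among 321 values of the named probes there were 12 changes of sign. The 321 include settings that left the differences as they were, such as the filters, the slide run as a block and the eBayes settings. They leave out the values within each run of slides, where signs also changed. No paired analysis was possible because the labels pair no stallions. The number of arrays, and signal close to background for EIF4EBP3 and the dim probes, limit the precision.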

Other observations

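The EIF4A1 probe that was left out, annotated to 4 symbols, was above background on 2 of 6 arrays. Counts of probes with 1 stallion standing apart were 13 for dexamethasone replicate 1, 13 for dexamethasone replicate 2, 6 for dexamethasone replicate 3, 4 for control replicate 1, 12 for control replicate 2 and 7 for control replicate 3.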
